A study of Arabidopsis thaliana with 8 samples.

Results

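The brightest signals of gibberellin-deficient Arabidopsis thaliana shoots were examined on Affymetrix ATH1 arrays, where a probe set, a group of short oligonucleotides, reports on a transcript. The members were the 200 probe sets with the highest geometric mean signal over the 4 water arrays, with values below 1 set to 1. They were taken from 22596 probe sets, which leaves out the array controls and a run of 150 probe sets with neighbouring identification numbers. Of the 200, 44 had 1 gene listed and are described by name, 9 had several genes and 147 had none, and the last 2 kinds are given by number only. A signal also depends on how well its oligonucleotides bind, so the rank of a probe set is a rank of brightness and not of transcript number, and the members are called the brightest rather than the most abundant.

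All 8 arrays came from shoots of ga1-3 in the Ler background, aged 8 days, so the mutation that blocks an early step of gibberellin synthesis was shared by both groups. Seedlings stood on vertical plates with 2% sucrose under constant light at 22 °C and were sprayed with water (4 arrays) or with 2 µM GA4, a bioactive gibberellin (4 arrays), and shoots were cut 1 h later. Replicates carry the numbers 1 to 4 in each group and are called biological in the design text, but what a shared number stands for is not said. No wild-type or unsprayed shoots were among the samples. Nothing says that replicates came from separate cultures, so p-values measure the spread between these samples, which may be technical. Under either treatment, replicates 1 and 2 formed one set of arrays and replicates 3 and 4 another, for reasons the labels leave unsaid, so values are given by replicate number. In RNA of whole shoots, fewer cells of a type and less RNA per cell cannot be told apart.

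In green seedlings much of the messenger RNA serves photosynthesis. Nuclear genes encode the antenna proteins, most small photosystem subunits and the Calvin cycle enzymes, which are made in the cytosol and imported into chloroplasts. Growing shoots also hold many transcripts for cytosolic ribosomes. Gibberellin promotes growth by removing DELLA repressor proteins, and the study asked which genes respond to it early.

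Chloroplast and photosynthesis genes led the named members. Of the 44, 8 served the photosynthetic light reactions, 3 carbon fixation, 3 photorespiration and 4 other chloroplast functions, which makes 18. Another 12 belonged to cytosolic translation, 5 to central metabolism and 7 to defence, secreted and stress proteins, and 2 had no assigned function. Among ranks 1 to 100, 13 of the 18 named members were of the chloroplast, photosynthesis and photorespiration kinds and 0 were of cytosolic translation. Among the lower 100 members the counts were 5 and 12 of 26, and the translation genes ran from rank 103 to rank 199. The 81 loci of the photosynthesis and photorespiration lists had a probe set with 1 gene in 13 cases, and 11 of these were members. Only LHCB4.2 (rank 343) and LHCB4.3 (rank 794), the antenna genes related to LHCB4.1, were outside. This lead depends on the limit, since genes of these lists made up 10 of 18 named probe sets in the 100 brightest (55.6%), 11 of 44 in the 200 brightest (25%) and 12 of 119 in the 400 brightest (10.1%).

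The names cover a small and uneven sample of the members. A gene was listed alone for 22% of the members but for 59.4% of the pool, and none was listed for 73.5% against 38.4%. Probe sets of the s_at type, which match several related transcripts, made up 12% of the members and 4.04% of the pool. The functions above therefore describe 44 probe sets and cannot be extended to the other 156. None of the 10 brightest probe sets had a single gene listed. The brightest, 256309_at, read 28242, 31082, 23676 and 30839 units on water replicates 1 to 4 and 37442, 35675, 25292 and 26533 on GA4 replicates 1 to 4. Its GA4 signals lay above the matching water signals in replicates 1 to 3 and below in replicate 4.

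**Figure D1:**
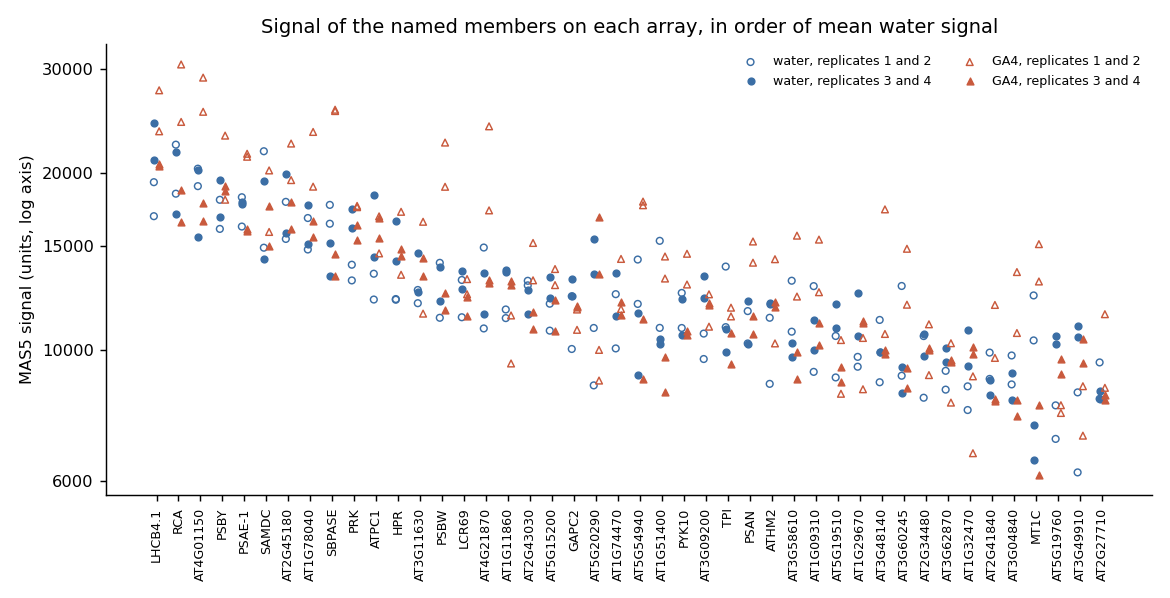
MAS5 signal in units (log axis) of the 44 named members on each of the 8 arrays, ordered by mean water signal, with water as circles, GA4 as triangles, replicates 1 and 2 open and replicates 3 and 4 filled. The open triangles of GA4 replicates 1 and 2 stand highest for named members of several functions. Examples are SBPASE at 25570 and 25436 units and AT5G54940, of cytosolic translation, at 17862 and 17608. They do not for others, such as LHCB4.1, with 24310 units on water replicate 4 above 23502 on GA4 replicate 1.

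The tissue label was checked against marker genes. Of the 4 mature leaf markers only RCA had a named probe set, and it was a member at rank 14. Of the 6 root markers 4 had one. The root hair expansins EXPA7 and EXPA18 and the peroxidase gene AT4G26010 had geometric mean water signals of 77.3, 42.6 and 61.7 units, all below the level of 110.0 units that a probe set needed to be tested. The remaining one, PYK10, was a member. The apex marker CLV3 stood at 7.10 units, the other 2 apex markers were unnamed, and none of the seed and companion cell markers had a named probe set.

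The light reactions were represented by antenna, photosystem and ATP synthase genes. LHCB4.1, which encodes the antenna protein CP29 of photosystem II, was the brightest named member. It read 16872, 19268, 21035 and 24310 units on water replicates 1 to 4 and 23502, 27582, 20647 and 20552 on GA4 replicates 1 to 4. GA4 was higher in replicates 1 and 2 and lower in replicates 3 and 4, and the groups overlapped. PSBW, a small subunit of photosystem II, read 11348, 14064, 12107 and 13849 units in water and 22491, 18925, 11679 and 12478 in GA4, with the same order within each replicate number. PSBY, another photosystem II subunit, ran from 16055 to 19442 units in water and from 17994 to 23111 in GA4. AT1G51400, the photosystem II 5 kD protein, had its highest water signal in replicate 1 (15325 units) and lay between 10238 and 10910 in the others.

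Photosystem I was represented by PSAE-1 and PSAN. PSAE-1 had the smallest spread of all named members over the water arrays, with 18168, 16204, 17815 and 17720 units (SD 0.07 on the log2 scale), and stood at 21280, 21528, 16040 and 15951 units in GA4. PSAN ran from 10247 to 12118 units in water and from 10656 to 15284 in GA4. ATPC1, the gamma subunit of the chloroplast ATP synthase, ran from 12186 to 18306 and from 14591 to 16860. AT4G01150, which carries the synonym CURT1A and shapes thylakoid membranes, read 18973, 20312, 15557 and 20176 units in water and 28982, 25362, 16584 and 17785 in GA4. The GA4 signals of all 4 genes overlapped those of water.

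Carbon fixation contributed RCA, SBPASE and PRK. RCA, the activase that frees Rubisco of inhibitors, read 18423, 22309, 17008 and 21668 units in water and 30509, 24380, 16464 and 18670 in GA4. SBPASE, a phosphatase that helps rebuild the carbon dioxide acceptor, read 16384, 17633, 13366 and 15192 units in water and 25570, 25436, 13350 and 14533 in GA4. PRK, the kinase that makes that acceptor, read 13130, 13960, 16086 and 17325 in water and 17476, 17563, 15403 and 16297 in GA4. In all 3 genes GA4 was higher than water in replicates 1 and 2 and lower in replicates 3 and 4.

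Photorespiration recovers carbon after Rubisco binds oxygen, and its named members were HPR, AT1G11860 and AT1G32470. HPR, the peroxisomal hydroxypyruvate reductase, ran from 12176 to 16572 units in water and from 13422 to 17163 in GA4. AT1G11860, the T protein of glycine decarboxylase, read 11334, 11722, 13677 and 13570 units in water and 9494, 11451, 12920 and 13117 in GA4, and was lower in GA4 in each pair. Its H protein partner AT1G32470 ran from 7916 to 10801 and from 6687 to 10142. The other chloroplast members were AT3G11630 (a 2-Cys peroxiredoxin, which removes peroxides), AT1G74470 (geranylgeranyl reductase of chlorophyll and vitamin E synthesis), ATHM2 (thioredoxin m2) and AT2G43030 (plastid ribosomal protein L3). Their geometric mean water signals ran from 10943 to 12915 units.

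Cytosolic translation was represented by 10 ribosomal protein genes, 1 elongation factor gene and 1 initiation factor gene, with geometric mean water signals from 8637 to 12058 units. The small subunit was present with AT5G15200 (S9), AT5G20290 (S8), AT2G41840 (S2) and AT3G04840 (S3a). The large subunit was present with AT3G09200 (P0), AT2G27710 (P2), AT3G60245 (L37a), AT2G34480 (L18a), AT3G62870 (L7a) and AT3G49910 (L26). AT5G19510, a subunit of elongation factor 1B, read 8990, 10569, 11972 and 10901 units in water and 8434, 10402, 9355 and 8827 in GA4, and was lower in GA4 in each pair. AT5G54940, an initiation factor of the SUI1 family, read 11979, 14245, 9082 and 11580 in water and 17862, 17608, 8935 and 11295 in GA4. Many ribosomal proteins have near-identical paralogs, so a signal can come from more than the listed gene.

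Central metabolism was represented by 5 genes. GAPC2 and TPI encode cytosolic enzymes of glycolysis, SAMDC an enzyme of polyamine synthesis, AT3G58610 the ketol-acid reductoisomerase of branched-chain amino acid synthesis and AT5G19760 a mitochondrial carrier of dicarboxylates and tricarboxylates. SAMDC, the brightest of them, read 14920, 21743, 14291 and 19375 units in water and 15866, 20172, 14994 and 17557 in GA4. It was high in replicates 2 and 4 of both treatments. GAPC2 ran from 10046 to 13214 units in water and from 10826 to 11894 in GA4.

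The defence, secreted and stress group held PYK10, a beta-glucosidase of the endoplasmic reticulum bodies, at 10904, 12504, 12190 and 10601 units in water and 12921, 14570, 10594 and 10778 in GA4. LCR69, a defensin-like protein, ran from 11371 to 13628 units in water and from 11418 to 13198 in GA4. AT2G45180, of a family of protease inhibitors and lipid transfer proteins, ran from 15440 to 19883 in water and from 16052 to 22404 in GA4. The group also held AT1G78040 (Ole e 1 allergen and extensin family), AT1G29670 (GDSL lipase family), MT1C (a metallothionein) and AT4G21870 (small heat shock protein family). AT3G48140 (B12D family) and AT1G09310 (DUF538 family) had no assigned function.

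The limit of 200 fell within a continuous run of values. Inside it were 263667_at, AT2G27710 and 259382_s_at at geometric means of 8642, 8637 and 8612 units, and outside it were 255457_at, AT4G17390 and AT2G01250 at 8595, 8553 and 8537 units. The last 2 encode 60S ribosomal proteins, so the count of ribosomal genes depends on where the limit is set. When members were chosen over the 4 GA4 arrays in place of the water arrays, 184 of the 200 were chosen again. With the run of 150 neighbouring probe sets kept in the choice, 185 were chosen again, so some of that run were as bright as the members.

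The 200 members held 17.2%, 17.8%, 17.0% and 18.5% of the summed signal on water replicates 1 to 4 (17.6% ± 0.68, SD, n = 4). On GA4 replicates 1 to 4 they held 20.7%, 20.5%, 17.1% and 17.5% (19.0% ± 1.92, SD, n = 4). The share was thus higher by 3.52 and 2.72 percentage points in GA4 in replicates 1 and 2, by 0.053 in replicate 3, and fell by 0.953 in replicate 4. After quantile normalization the order turned, with mean shares of 18.4% in water and 18.2% in GA4. That scaling gives every array the same set of values, so it nearly evens out the share of the brightest probe sets. It cannot decide the direction, and no direction is given for the share. The next 200 probe sets held 8.87% to 10.1% on all arrays, with GA4 minus water between −0.378 and 0.338 percentage points. The 44 named members held 3.57% to 3.85% in water and 3.55% to 4.24% in GA4. The share held by each array's own 200 brightest probe sets, whichever they were, was 17.9% ± 0.669 in water and 19.4% ± 2.14 in GA4 (SD, n = 4 each; exact permutation test, two-sided, p = 0.314, with 0.0286 the smallest p that 4 against 4 allows). On each array 163 to 177 of these were members, so this share largely repeats theirs. The test exchanged all arrays freely, although replicates 1 and 2 stood apart from 3 and 4. Its p therefore does not show that the shares were equal.

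**Figure D2:**
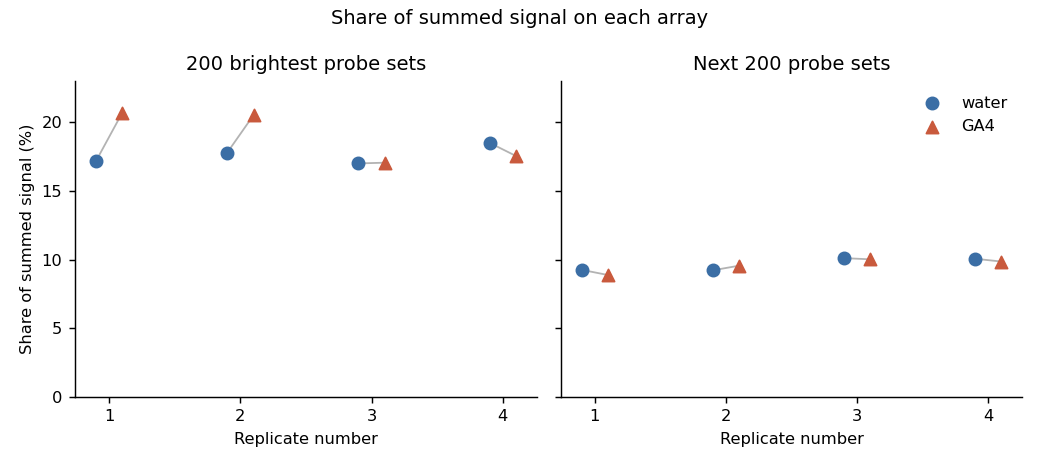
Share of the summed signal in percent held by the 200 brightest probe sets (left) and by the next 200 (right), for water (circles) and GA4 (triangles) by replicate number. From water to GA4 the left panel goes from 17.2% to 20.7% and from 17.8% to 20.5% in replicates 1 and 2 and stays between 17.0% and 18.5% in replicates 3 and 4.

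Measures of RNA quality and hybridisation also differed between the arrays. The 3′ to 5′ signal ratio of GAPDH was 2.25 and 2.13 on water replicates 1 and 2 and 3.50 and 5.43 on the GA4 arrays of those numbers, against 0.958 to 1.14 on the 4 arrays of replicates 3 and 4. The spiked hybridisation controls read 2.91 times their water mean on GA4 replicate 1, 1.71 times on GA4 replicate 2, and 0.971 to 1.11 times elsewhere. Their part in the result was not tested. The deposited arrays shared a 2%-trimmed mean of 500.0 units, and 196 to 200 of the members lay in the brightest 2% of each array, which such a mean leaves out.

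On the deposited scale, the GA4 difference of the members grew with brightness in replicates 1 and 2. In ranks 1 to 50 the median difference, GA4 minus water on the log2 scale, was 0.48, 0.36, 0.04 and −0.15 in replicates 1 to 4. In ranks 51 to 100 it was 0.38, 0.33, 0.01 and −0.09, and in the lower 100 members it was 0.12, 0.19, −0.01 and −0.08. In the next 200 probe sets it was −0.04, 0.09, −0.01 and −0.06. Over all 200 members the medians were 0.23, 0.28, 0.01 and −0.10, against 0.02, −0.02, 0.01 and −0.00 over all probe sets tested. Replicate 4 thus ran opposite to replicates 1 and 2 on that scale. After quantile normalization the medians over the 200 members were −0.04, −0.02, 0.00 and −0.02, so the contrast between replicates was not seen on that scale. Because that scaling evens out the brightest values of all arrays, it could hardly show such a contrast.

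**Figure D3:**
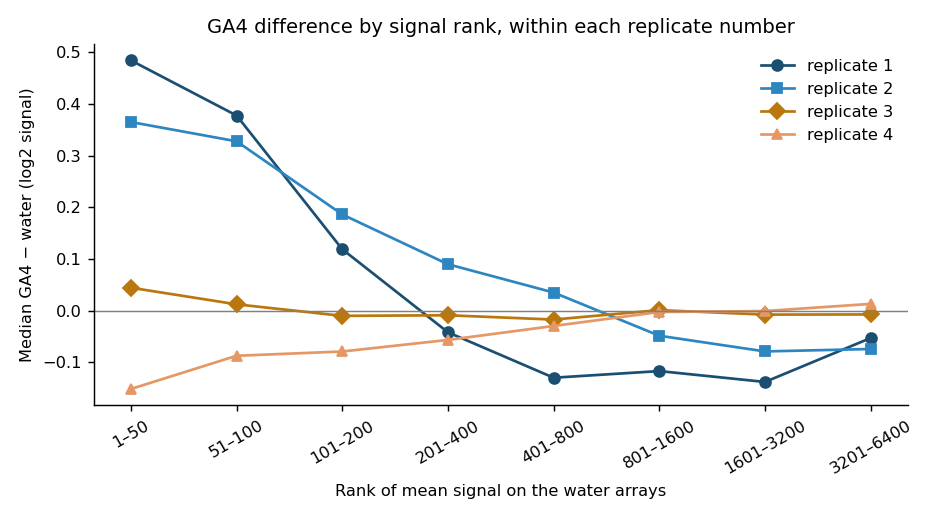
Median GA4 minus water difference on the log2 scale (y axis) for probe sets grouped by their rank of mean water signal (x axis), with 1 line for each replicate number. The lines of replicates 1 and 2 fall from 0.48 and 0.36 at ranks 1 to 50 to below 0 beyond rank 800, while that of replicate 3 stays between −0.02 and 0.04 and that of replicate 4 starts at −0.15.

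No member passed the test of GA4 against water. The test was limma on log2 signals over the 13648 probe sets with the highest mean signal, which included 200 of 200 members, with Benjamini-Hochberg adjustment and a threshold of 0.05. Without pairing, 0 of 200 members passed (adjusted p = 1.00 at the lowest), against 0.0147% of all tested. Without pairing 0 members had an unadjusted p under 0.05, against 2.65% of all tested. With the replicate number as a block, 0 of 200 passed (smallest adjusted p = 0.351), against 0.293% of all tested. At an unadjusted p under 0.05 the block left 9 members, 7 higher and 2 lower in GA4, against 11.8% of all tested (5.17% higher). That count was 1 without pair 1, 2 without pair 2, 8 without pair 3 and 31 without pair 4, with 0, 0, 6 and 28 of them higher. The water arrays that chose the members also enter this contrast, so the counts of members are a description.

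A missed threshold does not show that levels were equal, so the 95% intervals of the differences were counted. Without pairing, the interval lay within 1 log2 unit (a 2-fold change) on either side of 0 for 196 of 200 members, against 80.4% of all tested, and within 0.5 log2 units for 98, against 16.4%. The latter count was 63 without water replicate 4, 58 without GA4 replicate 3 and 57 without GA4 replicate 4. With the block the interval lay within 1 log2 unit for 200 of 200 members, against 95% of all tested, and it lay within 0.5 log2 units for 151 members, against 51% of all tested. That count of 151 was 88 without pair 3 and 90 without pair 4. The mean difference itself was within 0.5 log2 units for 200 of 200 members, against 94.4% of all tested. In the next 200 probe sets it was within that limit for 197, so this trait was not particular to the members. Intervals were not counted for that next set. Among the members the mean difference ran from −0.46 to 0.39 with a median of 0.10, against a median of 0.01 over all tested. The mean was above 0 in 151 of 200 members, against 51.5% of all tested, but after quantile normalization between arrays in only 77, with a median of −0.02, and with array weights in 81, with a median of −0.01. Quantile normalization evens out the brightest values of all arrays, so its result cannot decide the direction. No common direction can therefore be given for the members.

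Few members moved alike in every pair on the deposited scale. GA4 was higher in 4 of 4 pairs for 3 members, against 9.64% of all tested, and lower in 4 of 4 pairs for 5 members, against 10% of all tested. In the next 200 probe sets these shares were 4% and 6.5%. On this scale the median of the members ran opposite in replicate 4 to replicates 1 and 2. How many members moved alike in every pair was not counted after quantile normalization. The named members alike in every pair were AT1G11860, at −0.11 (SE 0.11 with the block, adjusted p = 0.729), and AT5G19510, at −0.19 (SE 0.11, adjusted p = 0.520). Which named members moved alike depended in part on the scale. After quantile normalization AT5G19510 was still lower in all 4 replicates (−0.22, −0.22, −0.39 and −0.21). AT1G11860 was no longer lower in replicate 4 (0.03), whereas LCR69 was then lower in all 4 (−0.08, −0.23, −0.09 and −0.18), as were TPI and AT2G43030. AT4G21870 was then higher in all 4 (0.21, 0.37, 0.21 and 0.06), as were ATHM2 and AT3G48140. The lowest difference was that of 253767_at, at −0.46 (SE 0.18, adjusted p = 0.360), which read 16393, 13292, 15194 and 8679 units in water and 12854, 5600, 14020 and 8026 in GA4. Its drop in replicate 2, by 1.25 on the log2 scale, was far larger than those of 0.35, 0.12 and 0.11 in replicates 1, 3 and 4. The groups overlapped for all members but 259681_at, whose signals were 10863, 8128, 8385 and 8158 units in water and 6911, 5298, 7863 and 7816 in GA4, against 1.39% of all tested that lay below water in this way. The GA4 arrays all lay above the water arrays for 0 members, against 0.894% of all tested. The difference of 259681_at was −0.36 (SE 0.13, adjusted p = 0.351).

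The largest mean differences upwards were those of 250278_at and AT4G21870. The former was at 0.39 (SE 0.16 with the block, adjusted p = 0.380) and had no gene listed. AT4G21870 was at 0.37 (SE 0.14, adjusted p = 0.358), with 14929, 10885, 11498 and 13513 units in water and 23963, 17259, 12980 and 13175 in GA4. Its difference was 0.68 and 0.67 in replicates 1 and 2 and 0.17 and −0.04 in replicates 3 and 4. PSBW at 0.30 (SE 0.17), SBPASE at 0.28 (SE 0.14), AT3G48140 at 0.22 (SE 0.13), AT4G01150 at 0.21 (SE 0.14) and AT5G54940 at 0.21 (SE 0.13) came next among the named members, with adjusted p from 0.478 to 0.583 with the block. On the lower side, after AT5G19510 and AT1G11860, came TPI at −0.07 (SE 0.11), AT1G32470 at −0.05 (SE 0.11), GAPC2 at −0.05 (SE 0.12) and AT1G51400 at −0.04 (SE 0.12), with adjusted p from 0.838 to 0.909.

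**Figure D4:**
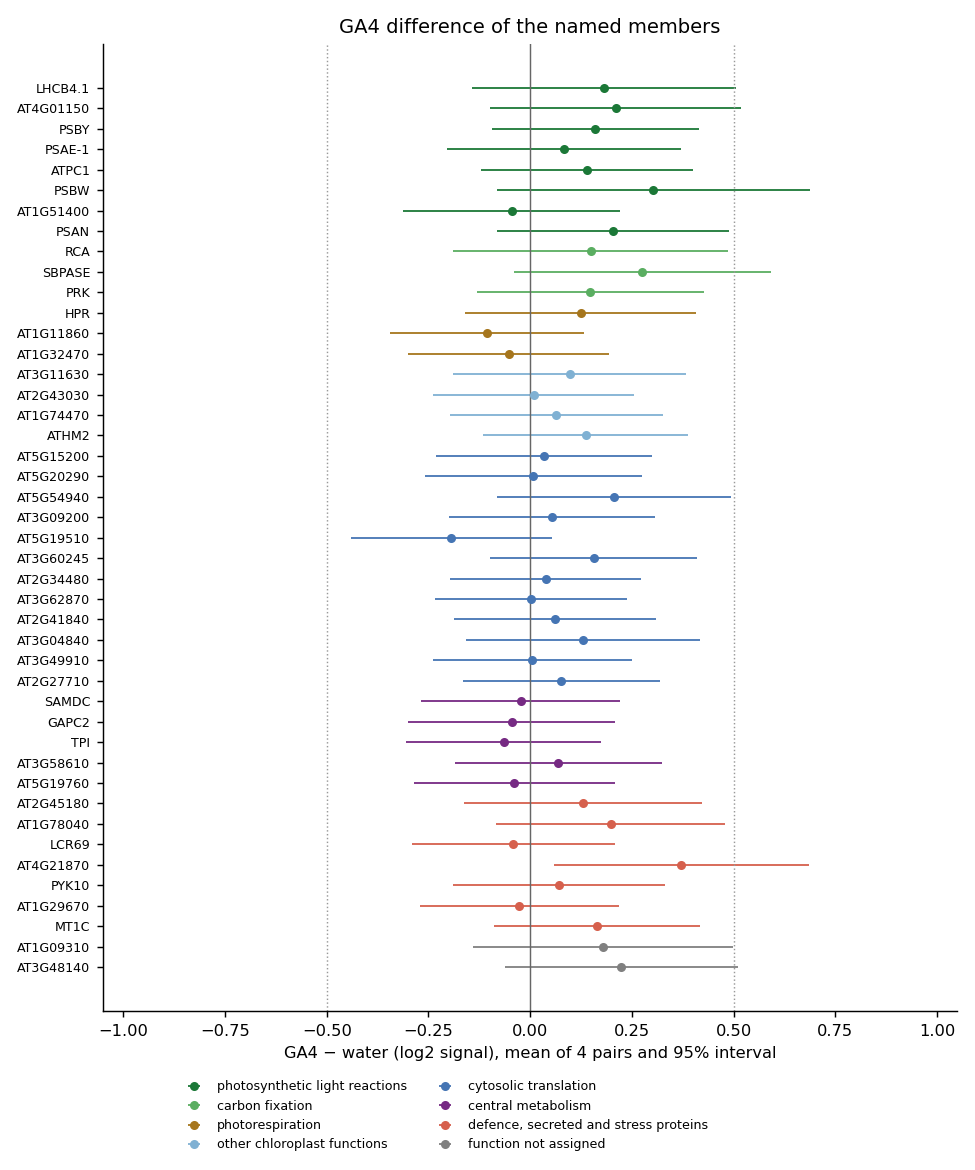
GA4 minus water difference on the log2 scale for the 44 named members, as the mean of 4 pairs with the 95% interval from limma when replicate number is a block, coloured by function, with dotted lines at 0.5 on either side of 0. The intervals of 38 members lie within the dotted lines, and those of PSBW, SBPASE and AT4G21870 reach furthest beyond them.

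By function, the 8 light reaction genes had a median difference of 0.17 (0.40, 0.34, 0.01 and −0.15 in replicates 1 to 4). On the deposited scale 7 of 8 were above 0, against 75.5% of all members and 51.5% of all tested. After quantile normalization 4 of 8 were. The 3 carbon fixation genes had a median of 0.15 (0.64, 0.33, −0.05 and −0.09). Cytosolic translation had a median of 0.05 over 12 genes (0.12, 0.21, −0.06 and −0.09). With the block its intervals lay within 0.5 log2 units for 12 of 12, against 151 of 200 members and 51% of all tested. Without pairing some reached beyond that limit, such as those of AT5G20290 (−0.52 to 0.54) and AT5G54940 (−0.33 to 0.74). Central metabolism had a median of −0.04 over 5 genes, and photorespiration of −0.05 over 3. After quantile normalization these medians were 0.01, −0.00, −0.03, −0.12 and −0.08. The signs of the carbon fixation and translation medians turned under that scaling. So did those of other chloroplast functions (0.08 to −0.02) and of defence, secreted and stress proteins (0.13 to −0.04). No group member passed the test in either fit.

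The members varied less between arrays than the typical tested probe set, but not less than the 200 probe sets ranked after them in every measure. The median SD of the log2 signal over the 4 water arrays was 0.17 for the members and 0.31 for all tested, and over the 4 GA4 arrays 0.26 and 0.35. In the next 200 probe sets it was 0.22 in water and 0.25 in GA4. The water values also chose the members, so the water SD is a description. In the limma fits the median residual SD was 0.23 for the members and 0.34 for all tested without pairing, and 0.16 and 0.20 with the block. The order of the members, measured by Spearman's rho across the 200 probe sets, correlated at 0.804 to 0.976 between arrays of replicates 1 and 2 or between arrays of replicates 3 and 4, and at 0.638 to 0.764 between these sets. Probe sets are not independent replicates, and the correlations are given as a description. Of the 200 members, 163 to 177 were among the 200 brightest of each single array, and 196 to 200 among its 400 brightest.

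Some members differed between replicate numbers in both treatments. All 4 arrays of replicates 1 and 2 lay above all 4 of replicates 3 and 4 for 33 members, against 23.7% of all tested, and below them for 25, against 13.7%, which makes 58 of 200, against 37.4%. This share of 29% lay below that of all tested. MT1C, a metallothionein that binds metal ions, had the largest spread of the named members (SD 0.43). It read 12382, 10388, 7455 and 6503 units on water replicates 1 to 4 and 15127, 13075, 8070 and 6154 on GA4 replicates 1 to 4, so replicates 1 and 2 lay above replicates 3 and 4 in both treatments.

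The reverse order held for a pair of ribosomal protein genes. AT3G49910, ribosomal protein L26, read 8480, 6205, 11003 and 10512 units in water and 8687, 7162, 10439 and 9517 in GA4 (SD over water 0.38). AT5G20290, ribosomal protein S8, read 10905, 8715, 15440 and 13442 in water and 10010, 8881, 13481 and 16834 in GA4 (SD 0.36). Both were low in replicates 1 and 2. AT5G19760, the mitochondrial carrier, was also lower there, at 7072 and 8061 units against 10583 and 10248 in water and 8065 and 7825 against 9669 and 9096 in GA4. Between treatments these 3 genes differed by 0.01, 0.01 and −0.04, with SE of 0.11, 0.12 and 0.11 with the block. Other ribosomal protein genes were steadier, such as AT2G27710 and AT2G41840 with an SD of 0.10 each over the water arrays.

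**Figure D5:**
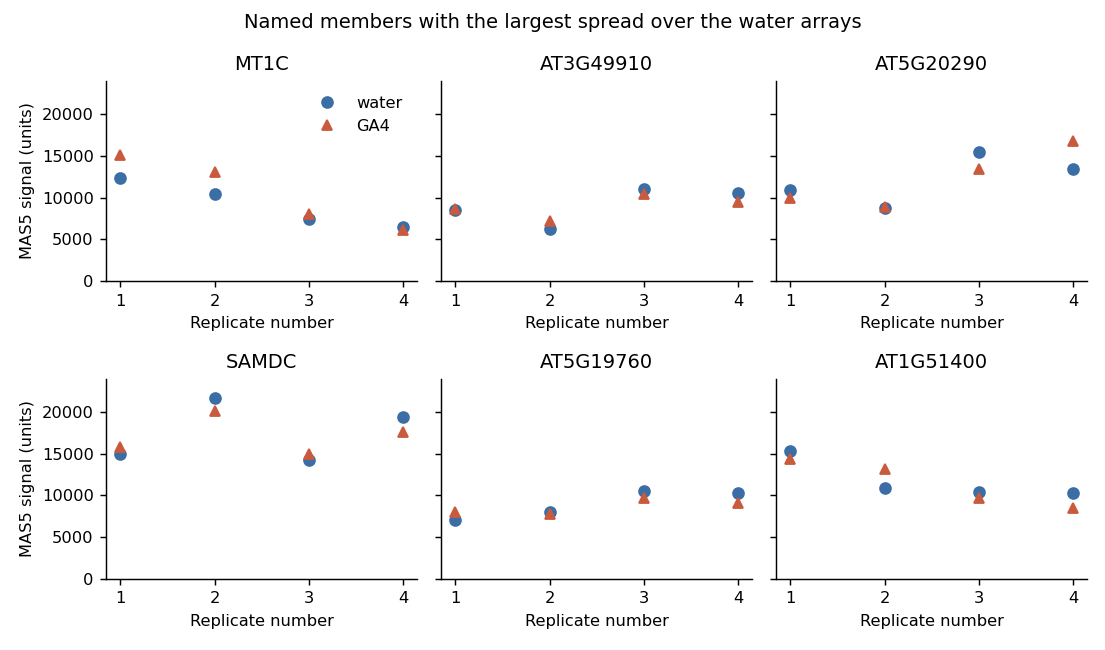
MAS5 signal in units on each array by replicate number, for the 6 named members with the largest spread over the water arrays, with water as circles and GA4 as triangles. MT1C is highest in replicates 1 and 2 (10388 to 15127 units) and AT5G20290 in replicates 3 and 4 (13442 to 16834 units), in both treatments.

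Among the members without a single gene the spread was largest for 248043_s_at, 266165_at and 253666_at. The first of these read 10261, 4180, 11073 and 12127 units in water and 6144, 3703, 13347 and 13331 in GA4 (SD over water 0.71). The other two had SDs of 0.70 and 0.69 and were low in replicates 1 and 2 of both treatments, at 4822 to 7667 units against 13304 to 17286. With 253767_at these were the 4 members whose unpaired interval reached beyond 1 log2 unit, and with the block all 4 intervals lay within it.

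Because the GA4 differences of replicates 1 and 2 and of replicates 3 and 4 looked unlike, the difference between them was tested with limma, a test chosen after seeing the data. Over the members this difference had a median of 0.30 on the log2 scale and was positive for 166 of 200, against a median of −0.00 over all tested. This holds for the deposited scale only. The quantile-normalized medians of the 4 replicates, given above, lay between −0.04 and 0.00, on a scale that evens out the brightest values. The test was passed by 0 of 200 members (smallest adjusted p = 0.683), with 47 at an unadjusted p under 0.05 against 7.01% of all tested, and 0% of all tested passed. With replicates 1 and 2 alone, 0 members passed and 50 had an unadjusted p under 0.05, 47 of them higher in GA4, against 9.61% of all tested (4.55% higher, and 0.00733% past the adjusted threshold). With replicates 3 and 4 alone, 0 passed and 2 had an unadjusted p under 0.05, neither of them higher, against 6.21% of all tested (0.0659% past the adjusted threshold). Members measured on the same arrays are not independent of each other. Such counts therefore describe these arrays and are not repeated evidence of a GA4 effect.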

How the data were processed

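RNA from 8 shoot samples was hybridised to 1-colour ATH1 arrays, and the deposited values are linear MAS5 signal intensities, 1 per probe set, per the submitters' processing notes. The version, the scaling target and the detection calls of MAS5 are not given in the sources used here. All arrays had a 2%-trimmed mean of 500.0 units.

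Signals below 1 were set to 1 (703 values) and log2 was taken, with no further normalization. The 60% of probe sets with the highest mean over all 8 arrays (13648, above 110.0 units) were fitted with limma 3.58.1 in R 4.3.3 (lmFit, eBayes with a trend), with Benjamini-Hochberg adjustment over all of them and a threshold of 0.05. The fit had no pairing term, and a fit that blocked on replicate number was an alternative. Deviations from the group means correlated at 0.616 to 0.685 between samples of the same number, above the limit of 0.1 in 4 of 4 pairs, so the numbers were taken to pair the samples. Samples of different numbers also correlated, at 0.367 to 0.599, within replicates 1 and 2 or within 3 and 4. Between these sets the correlation was −0.601 to −0.518. Matches within a set thus pass the limit of 0.1 whatever their number, and it cannot show that shared numbers are true pairs. Figures were drawn with matplotlib 3.10.9. Other normalizations, filters, floors, array weights and left-out arrays were also tried.

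Shares are of the summed signal of all probe sets of the pool. The number of arrays limits the precision. Members and lists were chosen with earlier results of these data known. Genes came from the platform annotation, with symbols updated through RefSeq's gene table. The rule for naming took, among members with 1 listed gene, the 20 brightest in water, the 3 brightest of each function, the 6 largest differences in each direction, any past the threshold, the 6 largest SDs over the water arrays and the photosynthesis and photorespiration lists. It also took the 3 probe sets on either side of the limit of 200, and by number the 10 brightest without a gene. Other names, of members listed under their function or with extreme spread or difference, were chosen after their values were seen. That annotation held no gene descriptions, so the keyword classes planned could not be used. Functions were assigned by hand from background knowledge, after the levels had been seen.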

Additional observations from a re-analysis of the deposited data

Results flagged for a closer look

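Among 112 groups of 4 arrays, taken over the named members, the 10 brightest probe sets and shares of signal, 6 held 1 array far from the other 3 by Dixon's ratio of gap to range, whose critical value is 0.829. Chance gives about 1 such group in 20. In GA4 replicate 2, GAPC2 was low at 10826 units against 11719 to 11894 (ratio 0.843), AT3G48140 was high at 17326 units against 9870 to 10653 (0.864), and AT2G27710 was high at 11507 units against 8245 to 8632 (0.862). In GA4 replicate 1, 265033_at was high at 29832 units against 21890 to 23032 (0.836). In water replicate 1, AT1G51400 was high at 15325 units against 10238 to 10910 (0.843). In water replicate 3, 251814_at was low at 17486 units against 21970 to 23011 (0.831).

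The spiked hybridisation controls, which carry no plant RNA, had a GA4 mean of 1.69 times the water mean, above the highest water array at 1.07, with GA4 arrays from 1.02 to 2.91. The 150 neighbouring probe sets kept out of the choice of members held a GA4 mean of 3.54% of all signal, above the highest water array at 3.49%, with GA4 arrays from 2.33% to 5.65%. Both were highest in GA4 replicate 1.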

How the results depend on the processing

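No alternative fit called any of the 200 members, and the 95% interval lay within 1 log2 unit for 181 to 200 of them. Over all probe sets, 2 passed in the unpaired fit. There were 40 with the replicate block, 32 with a block on replicates 1 and 2 against 3 and 4, 1 with no filter on dim probe sets, 1 with the brightest 40% kept, 8 with array weights and 20 with the replicate block and quantile normalization, the last chosen after seeing the data. Leaving out any 1 array gave 1 to 1. The paired fit gave 8 to 51 with a pair left out, 17 without pair 1, 8 without pair 2, 51 without pair 3 and 42 without pair 4. Replicates 1 and 2 alone gave 1, and replicates 3 and 4 alone gave 9. The block changed no call on a member. After quantile normalization the members' share of signal was 18.4% in water and 18.2% in GA4, a difference of −0.156 percentage points against 1.34 on the deposited scale, so its direction turned. That scaling nearly evens out such a share, so the turn decides no direction. Of 1296 recomputed differences of single probe sets, 36 moved by over 1 residual SD of the unpaired fit, 24 of them with replicates 1 and 2 or 3 and 4 alone. Blocks, filters, floors and the trend setting leave these differences unchanged by design, so many of the 1296 could not move. The small count is therefore no measure of robustness. With 4 arrays a group, differences well under 0.5 log2 units could not be told from 0 for most members, and 156 of the 200 could not be given a single gene.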
